A study of Mus musculus with 7 samples.

Results

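The genes described here are 38 genes of endocardium and endothelium, the cells that line the heart cavities and the blood vessels, out of 23337 gene symbols in the count table. They were taken by name from a list: 14 encode surface, adhesion or secreted proteins, 10 encode transcription factors and 14 act in signalling. All 38 were in the table and all 38 passed the filter on low counts, which kept 14691 genes. RNA of mouse left ventricles was sequenced at embryonic day 12.5, from embryos whose mothers had received tamoxifen 1 day earlier. The 2 libraries labelled mutant came from Gt(ROSA)26Sortm1(cre/ERT2)Tyj embryos with loxP-flanked Tbx5 on both alleles (Tbx5flox/flox), and the 5 control libraries from embryos with the same recombinase allele and Tbx5+/+. Every embryo therefore carried CreERT2, and the mothers of both groups received tamoxifen. The recombinase is expressed from the ubiquitous Rosa26 locus, so a deletion is not restricted to any one cell type of the ventricle, endothelium included. The comparison asked which left ventricular transcripts differ when Tbx5, a cardiac T-box factor, is deleted.

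Endothelial cells are held together by VE-cadherin and claudins, take their growth signal from VEGF through tyrosine kinase receptors, and owe their identity to ETS-family, SOXF and TAL1-LMO2 transcription factors. In the ventricle at midgestation the endocardium lines the trabeculae, while the first coronary vessels grow in from the sinus venosus and the endocardium as a plexus that expresses the apelin receptor. Endothelial cells signal to the myocardium through ligands such as endothelin and respond to flow through KLF2 and nitric oxide synthase.

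Library totals were 20268208 and 22680280 counts in mutant replicates 1 and 2, and 20385656 to 24440806 in the controls. Tbx5 itself was at 93.9 and 114 CPM (counts scaled to library size) in the libraries labelled mutant, against 66.4, 80.5, 98.3, 64.2 and 74.9 CPM in control replicates 1 to 5, so its count was not reduced under the mutant label. The fitted change was upward, at a log2 fold change of 0.43 (standard error 0.15), mutant over control, with an adjusted p of 0.181 by edgeR's quasi-likelihood test. Gene-level counts also take in exons that the recombinase leaves in place, so they do not check the deletion, and the genotypes rest on the labels. Xist was at 380 and 509 CPM in the libraries labelled mutant, at 0.689 and 1.09 CPM in control replicates 1 and 3, and between 311 and 477 CPM in the other controls. The labels name no litter or batch, and p-values measure only the spread between these libraries. The defining endothelial markers Pecam1, Cdh5, Tek, Tie1 and Kdr were all present in every library, with a summed level of 462 and 740 CPM in mutant replicates 1 and 2, against 527 to 792 CPM in the controls. Of these 5 markers 3 are among the 38, and 0 of the 5 were called by edgeR, DESeq2 or limma-voom. In bulk tissue, fewer endothelial cells and less RNA per endothelial cell cannot be told apart.

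Promoter sequences are shown for 2 members for which the libraries labelled mutant differed in opposite directions, as described further on. Plxnd1, the semaphorin receptor plexin D1, lay above every control in mutant replicate 2 and below every control in mutant replicate 1, whereas Cldn5, the tight junction protein claudin 5, had the largest difference in the other direction. Each sequence gives the 250 bases before 1 transcript start, from RefSeq in the build GRCm38.p6, 5′ to 3′ on the strand of the gene. The Plxnd1 window is chr6:115995006-115995255 on the minus strand and the Cldn5 window is chr16:18776597-18776846 on the plus strand. The Plxnd1 start used, at base 115995005, lies 334 bases inside the RefSeq span of the gene, so this window is within that span, whereas the Cldn5 window precedes its gene's span. Capitals mark AGGAAG, a form of the core bound by ETS factors.

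Plxnd1: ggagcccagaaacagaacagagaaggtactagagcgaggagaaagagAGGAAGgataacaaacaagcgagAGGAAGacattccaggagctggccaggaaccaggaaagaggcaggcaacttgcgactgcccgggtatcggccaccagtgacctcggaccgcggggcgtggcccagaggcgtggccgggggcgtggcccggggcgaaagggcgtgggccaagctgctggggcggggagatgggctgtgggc

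Cldn5: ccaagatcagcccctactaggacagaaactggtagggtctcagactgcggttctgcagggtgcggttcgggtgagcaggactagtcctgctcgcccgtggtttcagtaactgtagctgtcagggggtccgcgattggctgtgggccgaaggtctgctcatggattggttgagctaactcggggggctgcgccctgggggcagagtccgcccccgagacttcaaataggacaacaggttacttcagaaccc

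The Plxnd1 window held AGGAAG starting 203 and 180 bases before the start, and the Cldn5 window held none. The search covered AGGAAG and CGGAAG for ETS factors and GGTGTG for T-box factors, on both strands, and neither window held GGTGTG. An ETS core stood in 13 of 26 promoter windows of the 18 members with an entry (50.0%), against 39.2% of all 32851 windows of this length. The T-box core stood in 4 of the 26 (15.4%), against 16.3% of all windows. These matches describe the letters of the windows and not the binding of a factor.

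None of the 38 endothelial genes was called different between the libraries labelled mutant and the controls. A gene was called at an adjusted p of at most 0.05 in edgeR's quasi-likelihood test with Benjamini-Hochberg adjustment over all genes tested, a rule that called 200 genes (1.36%), 0.899% lower and 0.463% higher. At an unadjusted p under 0.05, 5 members (Aplnr, Icam2, Ecscr, Egfl7 and Cldn5) had lower values in the libraries labelled mutant and 0 had higher values, or 13.2% of the 38, against 17.6% of all genes tested in either direction (9.52% lower and 8.09% higher). Limma-voom also called 0 members. The log2 fold changes of the members, mutant over control, ran from -1.0 to 0.38 with a median of -0.06, beside a median of -0.01 over all genes tested. Leaving out mutant replicate 1 put the members' median at 0.00, beside -0.02 over all genes, and leaving out mutant replicate 2 put it at -0.17, beside 0.00 over all genes. Standard errors (SE) lay between 0.09 and 0.36 on the log2 scale. DESeq2, run as an alternative, called 1 member, Aplnr, where it called 5.46% of genes with an adjusted p.

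**Figure D1:**
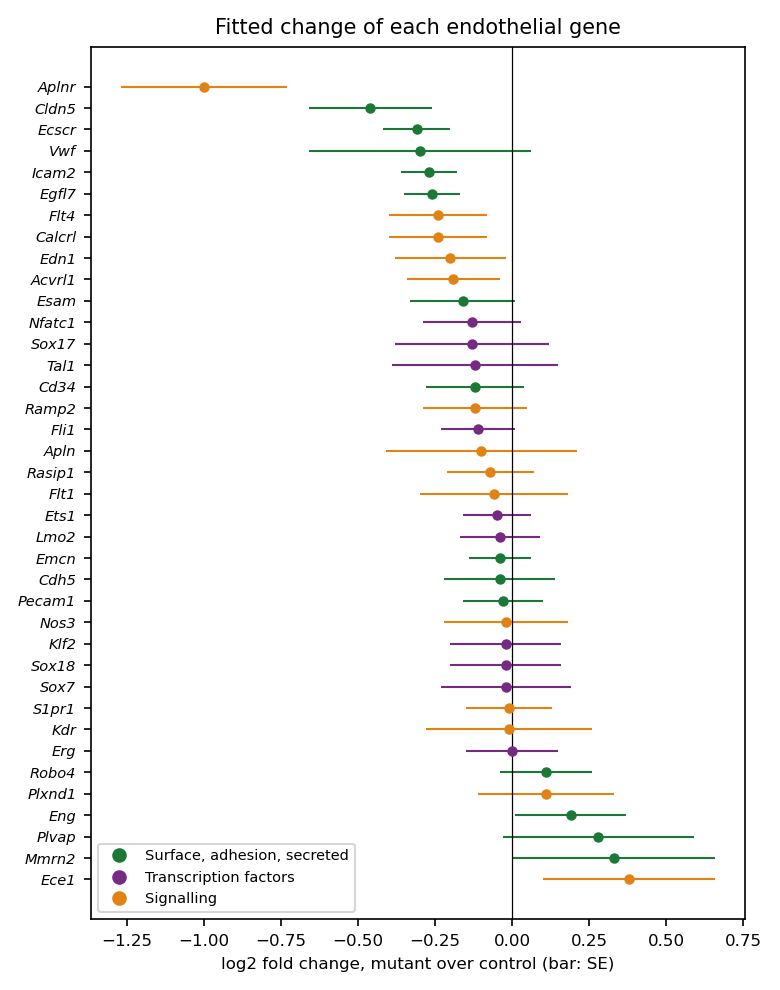
Fitted log2 fold change, mutant over control, of each of the 38 endothelial genes on the x axis, with bars of 1 SE, ordered from the most negative at the top to the most positive at the bottom and coloured by role. Aplnr stands apart at -1.0, and the other members lie between -0.46 and 0.38.

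Among the signalling members, Aplnr had the lowest p. It encodes the G protein-coupled receptor for apelin and lies at chr2:85136360-85139923 (GRCm38.p6, as for the other positions). Its level was 17.1 and 15.1 CPM in the libraries labelled mutant, against 43.0, 35.2, 20.1, 25.8 and 36.9 CPM in control replicates 1 to 5. Both libraries labelled mutant lay below every control, by a narrow margin from control replicate 3 and a wide one from control replicates 1, 2 and 5. The libraries labelled mutant averaged 16.1 ± 1.45 CPM (SD, n = 2), and the controls averaged 32.2 ± 9.15 CPM (SD, n = 5). The log2 fold change was -1.0 (SE 0.27), with an unadjusted p of 0.004, rank 587 among the 14691 genes, and an adjusted p of 0.1 by the edgeR quasi-likelihood test. Aplnr was the 1 member in the authors' deposited table of 668 significant genes, which gives it a log2 fold change of -1.01 and a false discovery rate of 0.00143; 4.55% of the genes tested here are in that table. The adjusted p was 0.00319 by DESeq2 and 0.028 by edgeR without control replicate 3, the control with the lowest level, while it was 0.558 by edgeR without mutant replicate 2.

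Apln, which encodes apelin, the peptide ligand of that receptor, did not share this pattern. Its level was 23.9 and 24.6 CPM in the libraries labelled mutant, against 33.5, 22.1, 14.8, 37.5 and 21.9 CPM in control replicates 1 to 5. Both libraries labelled mutant lay in the middle of a wide control range, and the log2 fold change was -0.10 (SE 0.31).

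Among the VEGF receptors, Kdr and Flt1 differed widely between the libraries labelled mutant, by 0.97 and 0.84 on the log2 CPM scale, and Flt4 less, by 0.29. Kdr, the main signalling receptor for VEGF-A in endothelium, was at 51.1 CPM in mutant replicate 1 and 100 CPM in mutant replicate 2, against 77.8, 66.5, 68.0, 62.1 and 107 CPM in control replicates 1 to 5. Mutant replicate 1 was thus the lowest of the 7 libraries and mutant replicate 2 was close to control replicate 5, the highest. Flt1, a VEGF receptor that mostly acts as a decoy, was at 18.4 and 32.9 CPM in mutant replicates 1 and 2, against 21.6 to 35.8 CPM in the controls. Flt4, the receptor for VEGF-C, was at 18.4 and 22.5 CPM in mutant replicates 1 and 2, against 30.2, 23.0, 19, 24.1 and 24.7 CPM in control replicates 1 to 5. For all 3 receptors mutant replicate 1 lay below every control and mutant replicate 2 inside the control range. The log2 fold changes were -0.01 (SE 0.27) for Kdr, -0.06 (SE 0.24) for Flt1 and -0.24 (SE 0.16) for Flt4.

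Plxnd1 and Ece1 each reached their highest level in mutant replicate 2. Plxnd1 (chr6:115954811-115995339) was at 153 and 269 CPM in mutant replicates 1 and 2, against 192, 190, 174, 165 and 256 CPM in control replicates 1 to 5. Ece1 (chr4:137862237-137965229), the protease that makes mature endothelin from its precursor, was at 103 and 200 CPM in mutant replicates 1 and 2, against 95.4, 102, 114, 96.7 and 173 CPM in the controls. For both genes control replicate 5 stood above the 4 other controls. The log2 fold changes were 0.11 (SE 0.22) for Plxnd1 and 0.38 (SE 0.28) for Ece1, the most positive of the 38. Edn1, the endothelin precursor itself, was at 11.1 and 9.58 CPM in the libraries labelled mutant, against 9.54 to 15.2 CPM in the controls, with both libraries inside the control range.

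Calcrl, the receptor for adrenomedullin, was at 35.1 and 47.5 CPM in mutant replicates 1 and 2, against 53.6, 39.2, 55.0, 42.7 and 54.2 CPM in control replicates 1 to 5, with a log2 fold change of -0.24 (SE 0.16). Ramp2, the accessory protein that lets this receptor bind adrenomedullin, was at 50.6 and 54.7 CPM in the libraries labelled mutant, against 41.7 to 74.9 CPM in the controls. S1pr1, a receptor for sphingosine 1-phosphate that stabilises vessels, was at 83.4 and 103 CPM in mutant replicates 1 and 2, against 95.6, 83.6, 83.7, 90.5 and 117 CPM in the controls. Of these 3 genes, Calcrl and S1pr1 had mutant replicate 1 below every control, S1pr1 by less than 1 CPM, and mutant replicate 2 inside. Nos3, endothelial nitric oxide synthase, followed the same arrangement at 52.1 and 76.4 CPM in mutant replicates 1 and 2, against 54.4 to 90.7 CPM in the controls. Acvrl1, the ALK1 receptor for BMP ligands, was at 17.9 and 14 CPM in mutant replicates 1 and 2, against 14.2 to 19.9 CPM in the controls, so here mutant replicate 2 was the lowest. Rasip1, a RAS-interacting protein needed for vessel lumens, had both libraries labelled mutant inside the control range. Of the 14 signalling members, 12 had log2 fold changes below 0, and their median was -0.08. Such values were not particular to signalling: 10 of 14 surface members and 9 of 10 transcription factors had them. They made up 81.6% of all 38 members, against 51.4% of all genes tested, and this lean was not tested.

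Among the surface, adhesion and secreted members, Icam2, Ecscr and Egfl7 lay below every control in both libraries labelled mutant, and Cldn5 in mutant replicate 2. Icam2 (chr11:106377656-106388139), an adhesion molecule of endothelium and blood cells, was at 46.5 and 41.0 CPM in the libraries labelled mutant, against 57.7, 50.9, 53.3, 49.7 and 52.7 CPM in control replicates 1 to 5. Ecscr (chr18:35713086-35722413), an endothelial surface protein that regulates chemotaxis, was at 28.3 and 29.9 CPM in the libraries labelled mutant, against 36.9, 31.7, 35.3, 41.1 and 35.5 CPM in the controls. Egfl7 (chr2:26581083-26592682), which encodes a secreted endothelial matrix protein, was at 65.8 and 66.5 CPM in the libraries labelled mutant, against 89.8, 74.0, 78.4, 74.7 and 78.2 CPM in the controls. The libraries labelled mutant lay close together for Ecscr and Egfl7, and the differences from the controls were small. The log2 fold changes were -0.27 (SE 0.09) for Icam2, -0.31 (SE 0.11) for Ecscr and -0.26 (SE 0.09) for Egfl7, with adjusted p of 0.164, 0.175 and 0.191 by the edgeR quasi-likelihood test. Cldn5 (chr16:18776847-18778262) was at 12.3 and 8.01 CPM in mutant replicates 1 and 2, against 16.7, 13.4, 10.5, 13.6 and 15.4 CPM in the controls, and its log2 fold change of -0.46 (SE 0.20) rested on mutant replicate 2, without which it was -0.17.

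With Aplnr, these made 4 members with both libraries labelled mutant below the control range, 10.5% of the 38 against 10.4% of all genes tested. No member had both above it, against 9.73% of all genes tested. Joint low values were thus as frequent among the members as in the background.

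**Figure D2:**
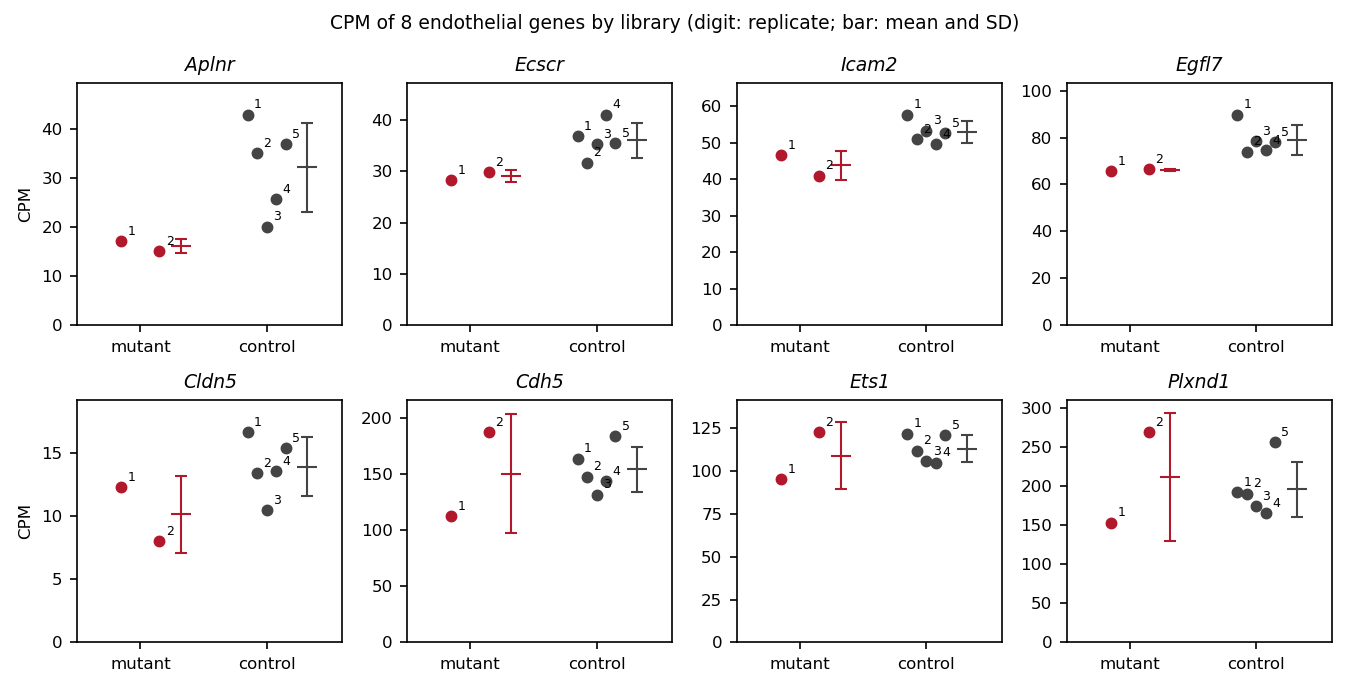
CPM, on axes that start at 0, of Aplnr, Ecscr, Icam2, Egfl7, Cldn5, Cdh5, Ets1 and Plxnd1 in the 2 libraries labelled mutant and the 5 controls; digits give the replicate, and the bars beside the points the mean and SD. The top row and Cldn5 have their lowest library among those labelled mutant, while Cdh5, Ets1 and Plxnd1 have mutant replicate 1 below and mutant replicate 2 above all controls.

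The surface members with the most counts were not lower in both libraries. Cdh5 (chr8:104101613-104144504), which encodes VE-cadherin, the adhesion protein of endothelial junctions, was at 113 and 188 CPM in mutant replicates 1 and 2, against 164, 148, 132, 144 and 184 CPM in control replicates 1 to 5. Mutant replicate 1 lay below and mutant replicate 2 above all controls, and the log2 fold change was -0.04 (SE 0.18). Pecam1 (chr11:106654213-106715281), the adhesion molecule CD31, was at 119 and 155 CPM in mutant replicates 1 and 2, against 144, 129, 130, 128 and 169 CPM in the controls. Eng, the TGF-beta co-receptor endoglin, was at 153 and 199 CPM in mutant replicates 1 and 2, against 147, 151, 147, 119 and 206 CPM in the controls. Only mutant replicate 1 of Pecam1 left the control range, and log2 fold changes were -0.03 (SE 0.13) for Pecam1 and 0.19 (SE 0.18) for Eng.

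Emcn, a sialomucin abundant on endocardium and veins, was among the steadiest members, at 81.0 and 74.5 CPM in mutant replicates 1 and 2, against 77.7, 72.0, 80.8, 90.1 and 77.9 CPM in the controls. Robo4, an endothelial guidance receptor, and Cd34, a sialomucin of vessels and blood progenitors, also had both libraries labelled mutant inside the control range, as did Esam, an adhesion molecule of tight junctions. Plvap, a protein of fenestrae, was at 55.9 and 97.1 CPM in mutant replicates 1 and 2, against 47.3, 53.7, 59.2, 52.8 and 101 CPM in the controls. Mmrn2, an endothelial matrix protein that binds VEGF, was at 40.2 and 83.8 CPM in mutant replicates 1 and 2, against 41.3, 44.5, 45.1, 37.5 and 78.0 CPM in the controls. In both genes mutant replicate 2 and control replicate 5 stood well above the 5 other libraries. Vwf, von Willebrand factor of endothelium and platelets, had the largest gap between the libraries labelled mutant, at 9.71 and 23.8 CPM in mutant replicates 1 and 2, against 18.1, 19.4, 27.0, 12.5 and 25.9 CPM in the controls.

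The 10 transcription factor genes had fitted log2 fold changes near 0, which average 2 libraries labelled mutant that differed from each other. Mutant replicate 2 minus mutant replicate 1 ran from -0.59 to 0.79 on the log2 CPM scale in this group. No member of this group had an unadjusted p under 0.05, log2 fold changes ran from -0.13 to 0.00, and 7 of the 10 had both libraries labelled mutant inside the control range (70.0%, against 31.7% of all genes tested). The difference between this group and the other members was not tested. Ets1 (chr9:32636241-32757820), an ETS-family activator, was at 95.2 and 123 CPM in mutant replicates 1 and 2, against 122, 112, 106, 105 and 121 CPM in control replicates 1 to 5. It was the 1 factor whose libraries labelled mutant lay on opposite sides of the controls, and its log2 fold change was -0.05 (SE 0.11). Erg, an ETS factor that maintains endothelial junctions, was at 18.9 and 23.1 CPM in mutant replicates 1 and 2, against 22.5, 19.7, 18.8, 18.1 and 25.6 CPM in the controls. Fli1, an ETS factor of endothelium and blood, was at 24.9 and 21.8 CPM in mutant replicates 1 and 2, against 29.8, 25, 24.4, 24.5 and 22.1 CPM in the controls. Mutant replicate 2 was the lowest library for Fli1, by less than 1 CPM, and both lay inside the range for Erg.

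Nfatc1, the endocardial factor required for valve formation, was at 28.3 and 36.4 CPM in mutant replicates 1 and 2, against 33.9, 33.7, 40.4, 27.1 and 41.6 CPM in the controls, with a log2 fold change of -0.13 (SE 0.16). The SOXF genes act together in vessel identity and did not share 1 direction between the libraries labelled mutant. Sox7 was at 21.8 and 30.5 CPM in mutant replicates 1 and 2, against 30.3, 24.7, 20, 22.6 and 34.8 CPM in the controls. Sox18 was at 30.5 and 20.3 CPM in mutant replicates 1 and 2, against 29.4, 27.7, 19.3, 23.9 and 27.8 CPM in the controls, and was the 1 member of the 38 with mutant replicate 1 above every control. Sox17 was at 6.14 and 4.99 CPM in mutant replicates 1 and 2, against 8.39, 6.41, 3.95, 5.89 and 5.86 CPM in the controls. Klf2, the flow-responsive factor, was at 17.7 and 20.1 CPM in the libraries labelled mutant, against 14.7 to 25.7 CPM in the controls.

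Tal1 and its partner Lmo2, shared between endothelium and early blood, were at 14 and 24.2 CPM and at 23.4 and 23.5 CPM in mutant replicates 1 and 2, against 13.5 to 26.8 CPM and 20.6 to 27.8 CPM in the controls. The summed level of 8 erythroid genes was 4397 and 4530 CPM in mutant replicates 1 and 2, against 3916, 5597, 6589, 3648 and 9011 CPM in control replicates 1 to 5. Tal1 had its lowest control in replicate 4, at 13.5 CPM, and its highest in replicate 3, at 26.8 CPM. Vwf had the same lowest and highest controls, at 12.5 and 27.0 CPM. Tal1 and Vwf were chosen after their values were seen, and a link of either gene to the erythroid sums was not tested. The summed level of 5 megakaryocyte and platelet genes was 12.7 and 14.2 CPM in the libraries labelled mutant, against 14.4 to 34.6 CPM in the controls, and 0 of the 5 were called (2 lower at an unadjusted p under 0.05, and 1, Ppbp, by DESeq2). Of the 8 erythroid genes 0 were called by edgeR or DESeq2. Of 8 macrophage and leukocyte genes 3 were called lower by edgeR, 5 by DESeq2 and 2 by limma-voom, and their sum was 132 and 94.5 CPM in mutant replicates 1 and 2, against 154 to 211 CPM in the controls. Of all genes tested, edgeR called 0.899% lower. The part of blood cells in the values of members they share was not tested.

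Mutant replicate 1 and mutant replicate 2 disagreed over the endothelial genes. Mutant replicate 1 lay below every control for 15 of the 38 members (39.5%), where it did so for 20.4% of all genes tested, and above every control for 1 (2.63%, against 18.6%). Mutant replicate 2 lay below every control for 7 members (18.4%, against 26.7%) and above for 5 (13.2%, against 27.0%). The 5 were Cdh5, Mmrn2, Ets1, Ece1 and Plxnd1. Mutant replicate 2 was above mutant replicate 1 for 27 of the 38 (71.1%, against 50.5% of all genes tested), with a median difference of 0.24 on the log2 CPM scale, beside 0.00 over all genes. The gap ran from -0.61 for Cldn5 to 1.28 for Vwf. It was wider than the largest difference between any 2 controls for 8 members (21.1%), a share near the 21.9% of all genes tested.

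**Figure D3:**
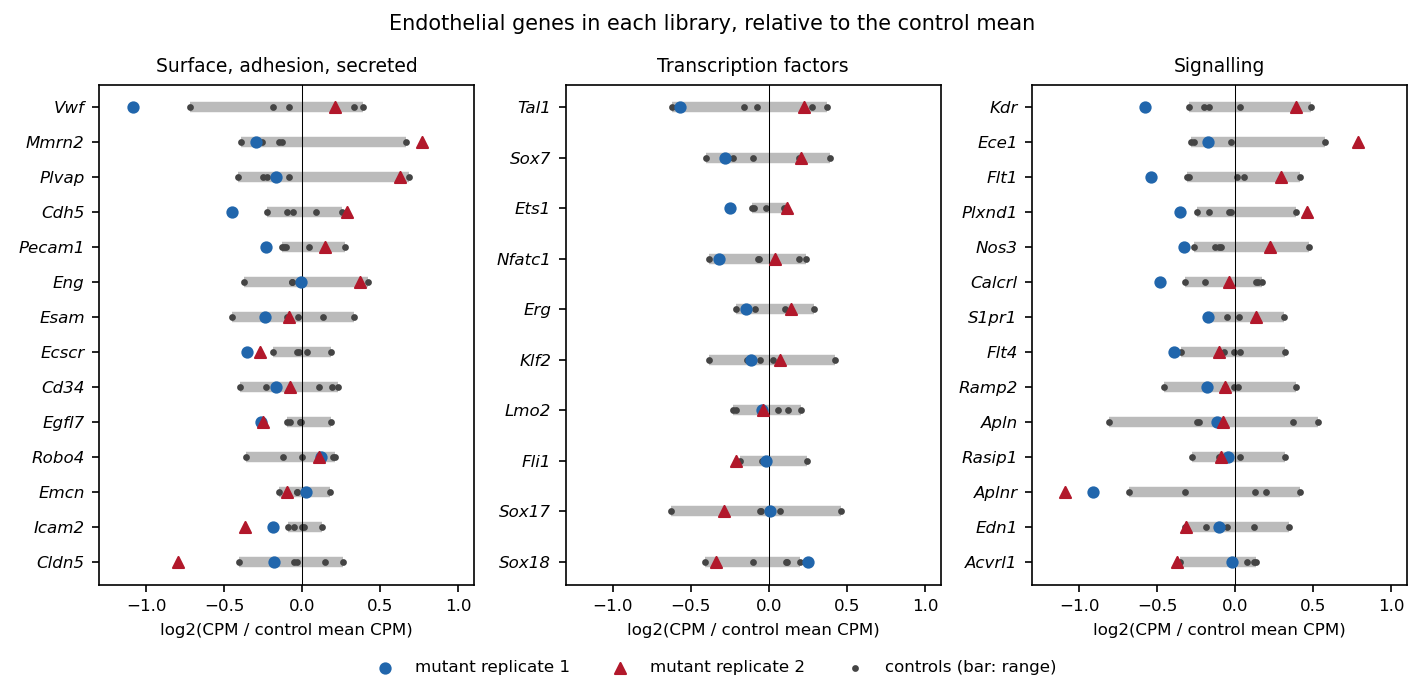
Each endothelial gene in each library as the log2 ratio of its CPM to the control mean on the x axis, by role; circles are mutant replicate 1, triangles mutant replicate 2, dots the 5 controls and grey bars the control range, with genes ordered by the difference between the libraries labelled mutant. Circles lie left of the grey bar for 15 genes and triangles right of it for 5.

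For 3 members, 1 of each role, the libraries labelled mutant lay on opposite sides of the control range: Cdh5, Ets1 and Plxnd1. This was 7.89% of the 38, against 4.24% of all genes tested, and in each of the 3 mutant replicate 1 was the lower library, an arrangement that 2.46% of all genes tested showed. Without control replicate 5 the count was 8 (21.1%, against 6.89% of all genes tested), with Flt1, Kdr, Nos3, Pecam1 and S1pr1 added. By role, mutant replicate 1 lay below all controls for 8 of 14 signalling members, 6 of 14 surface members and 1 of 10 transcription factors. The mean log2 CPM over the 14 signalling members was 5.22 and 5.54 in mutant replicates 1 and 2, against 5.61, 5.43, 5.31, 5.41 and 5.77 in control replicates 1 to 5. Over the 14 surface members it was 5.58 and 5.87 in mutant replicates 1 and 2, against 5.85, 5.71, 5.69, 5.70 and 6.06 in the controls. Over the 10 transcription factors it was 4.48 and 4.63 in mutant replicates 1 and 2, against 4.74, 4.59, 4.53, 4.40 and 4.79 in the controls. Mutant replicate 1 was thus the lowest library for the signalling and surface means, mutant replicate 2 lay inside the control range in each group, and control replicate 5 had the highest mean in each.

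Members with higher values in mutant replicate 2 than in mutant replicate 1 tended to have high values in control replicate 5 also. Control replicate 5 was the highest control for 18 of the 38 members (47.4%, against 27.6% of all genes tested). Across the 38 genes, the difference between mutant replicate 2 and mutant replicate 1 went with the difference between control replicate 5 and the mean of the 4 other controls, with a Spearman rho of 0.74 and a Pearson r of 0.71. Over 13249 tested genes with an annotated transcript the values were 0.34 and 0.22. These correlations are across genes, which share the same libraries and are not independent replicates, and they describe these libraries only. Without both of these libraries, an alternative chosen after seeing the data, 0 members were called and the members' median log2 fold change was -0.13.

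**Figure D4:**
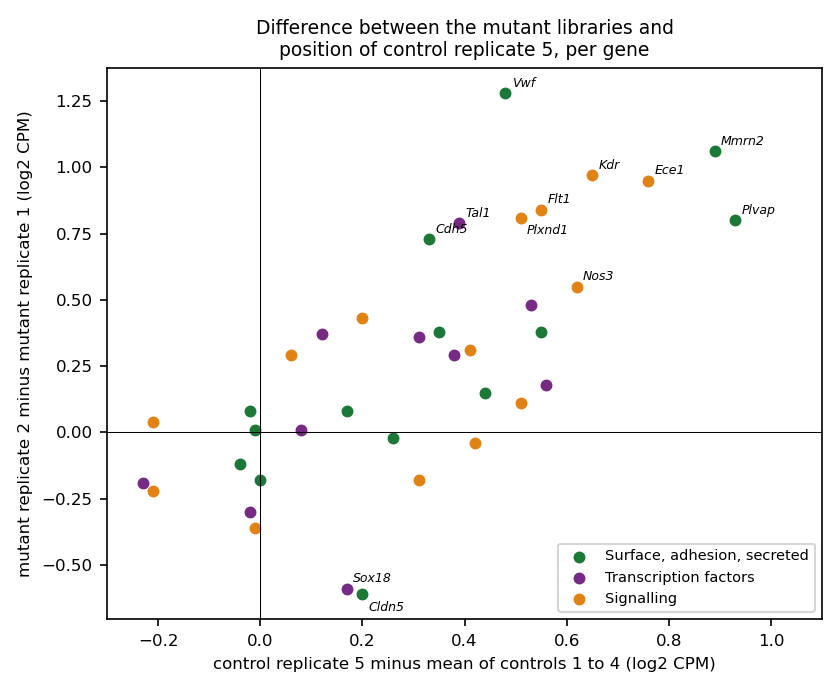
Difference in log2 CPM between mutant replicate 2 and mutant replicate 1 on the y axis against the difference between control replicate 5 and the mean of control replicates 1 to 4 on the x axis, 1 point per gene, coloured by role. Mmrn2, Ece1, Plvap and Kdr are high on both axes, and the Spearman rho over the 38 genes is 0.74.

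The gap between the libraries labelled mutant also went with transcript length. Across the 38 members the Spearman rho of the gap with the length of the longest annotated transcript was 0.59, beside 0.37 over all 13249 genes, and with GC content it was -0.03. The median gap was 0.04 on the log2 CPM scale for the 19 members with the shorter transcripts, of 1114 to 3318 bases, and 0.43 for the 19 with the longer ones, of 3422 to 8834 bases. Vwf, with the longest transcript, had the widest gap, and Cldn5, with a transcript of 1416 bases, the most negative. Exceptions went both ways: Plvap had a gap of 0.80 at 1987 bases, Acvrl1 -0.36 at 3640 bases and Emcn -0.12 at 3521 bases. The fitted log2 fold change, mutant over control, also went with transcript length, at a Spearman rho of 0.33 over the 13249 genes. Over the 38 members this rho was 0.21. The median log2 fold change was -0.11 for the 19 shorter members and -0.04 for the 19 longer ones. Ecscr, Icam2, Cldn5 and Egfl7 had transcripts of 1114, 1282, 1416 and 1865 bases, and Aplnr 3699 bases. The part of transcript length in the gap and in the fold changes was not tested.

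**Figure D5:**
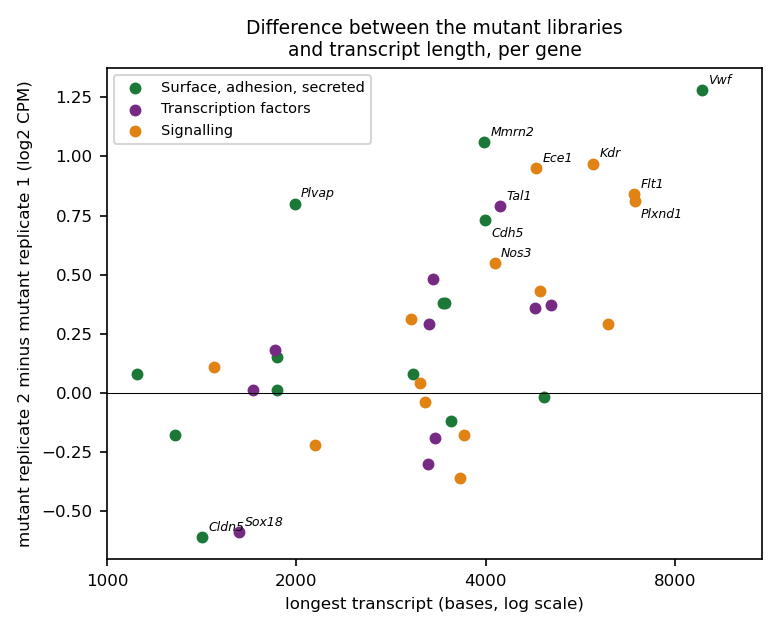
Difference in log2 CPM between mutant replicate 2 and mutant replicate 1 on the y axis against the length of the longest annotated transcript in bases, on a log axis, for the 38 endothelial genes. Vwf, Flt1, Plxnd1 and Kdr have long transcripts and positive differences, and Cldn5 and Sox18 short ones and negative differences.

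Levels can be compared between genes per length of exon. On the scale of CPM per kilobase of exon, Eng was the highest member, at 43.4 in the libraries labelled mutant and 38 ± 7.81 (SD, n = 5) in the controls, followed in the controls by Cdh5 at 36.8 ± 4.81, Plvap at 31.6 ± 11.0 and S1pr1 at 30.9 ± 4.58. The SDs are between libraries, which these genes share, and the differences between the genes were not tested. The exon length joins all annotated exons and can far exceed the longest transcript, as for Pecam1 (6228 against 3441 bases) and Cd34 (7290 against 3063 bases). The order below Eng therefore depends on the length used. The lowest were Sox17, at 1.17 in the libraries labelled mutant and 1.28 ± 0.333 in the controls, and Vwf, at 1.04 in the libraries labelled mutant and 1.28 ± 0.371 in the controls. Aplnr was at 4.35 in the libraries labelled mutant and 8.70 ± 2.47 in the controls, and Apln at 7.70 in the libraries labelled mutant and 8.24 ± 2.96 in the controls.

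Other genes of the same pathways were taken from lists, which were chosen with earlier results of these data known. Of 11 tested genes of VEGF and angiopoietin signalling, edgeR called 1 lower and none higher, 4 were lower at an unadjusted p under 0.05, and the median log2 fold change was -0.24. The called gene was Angpt1, the ligand of the endothelial receptor Tie2, at 20.6 and 22.5 CPM in the libraries labelled mutant, against 62.9, 54.1, 50.1, 49.0 and 49.9 CPM in the controls. The libraries labelled mutant lay far below every control. The fold change on the log2 scale was -1.3 (SE 0.12), the adjusted p by edgeR's quasi-likelihood test was 0.00208, and the call held in all 18 alternatives. The alternatives include the replicate number as a block, a fit that rests on arbitrary pairs of libraries and adds no evidence. DESeq2 called 1 gene more, Figf, which encodes the ligand VEGF-D. Figf was at 0.991 and 1.53 CPM in the libraries labelled mutant, against 4.69, 3.61, 3.27, 1.78 and 4.56 CPM in the controls, with a log2 fold change of -1.5 (SE 0.38). Both libraries labelled mutant lay below every control at these low levels. The Angpt1 receptor gene Tek was at 90.3 and 143 CPM in mutant replicates 1 and 2, against 100 to 152 CPM in the controls, and Tie1, an orphan receptor of the same family, at 88.0 and 153 CPM in mutant replicates 1 and 2, against 92.2 to 179 CPM in the controls. Both receptors had mutant replicate 1 below all controls and mutant replicate 2 inside, the arrangement seen in Kdr and Flt1. Among 15 ligands, receptors and partners of the members, edgeR called 1 higher and none lower, with a median of -0.09. At an unadjusted p under 0.05, 3 were higher and 5 lower, and DESeq2 called 1 higher and 1 lower, while limma-voom called none. S1pr3, another receptor for sphingosine 1-phosphate, was at 43.5 and 42.5 CPM in the libraries labelled mutant, against 30.1, 31.3, 26.2, 33.9 and 26.7 CPM in the controls. Its log2 fold change was 0.54 (SE 0.11) with an adjusted p of 0.045 in edgeR's quasi-likelihood test. Of 18 alternatives 10 called it, the replicate block among them. The call was lost in edgeR's quasi-likelihood test without control replicate 1, 2 or 3, at adjusted p of 0.065 to 0.0995. It was also lost with Xist as a covariate, at an adjusted p of 0.16 in the same test. Without mutant replicate 1 or 2 it was lost too, at log2 fold changes of 0.52 and 0.56. The gene that DESeq2 called lower was Cav1, which encodes caveolin 1 of endothelial caveolae, at 146 and 129 CPM in the libraries labelled mutant, against 286, 203, 178, 202 and 222 CPM in the controls. Both libraries labelled mutant lay below every control, and edgeR gave a log2 fold change of -0.67 (SE 0.16).

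None of 9 Notch pathway genes of endothelium was called by edgeR, DESeq2 or limma-voom, 2 were lower at an unadjusted p under 0.05, and the median log2 fold change was -0.11. Hey1, a Notch target, was at 9.71 and 9.80 CPM in the libraries labelled mutant, against 16.9, 15.7, 10.4, 14.2 and 18.4 CPM in the controls (log2 fold change -0.63, SE 0.20), and Jag1, a Notch ligand, had -0.45 (SE 0.17). None of 6 endocardial genes was called by edgeR (at an unadjusted p under 0.05, 1 was higher and 1 lower), DESeq2 called 1, Hapln1, and the median was 0.11. Hapln1, a hyaluronan link protein of the cardiac jelly, was at 22.6 and 27.7 CPM in the libraries labelled mutant, against 47.1, 35.0, 64.9, 29.9 and 48.8 CPM in the controls (log2 fold change -0.84, SE 0.27), and Nrg1, the neuregulin by which endocardium drives trabeculation, had 0.68 (SE 0.30). None of 3 lymphatic genes was called by edgeR (1 higher at an unadjusted p under 0.05), and DESeq2 called 1, Prox1. Prox1, which marks lymphatic endothelium and is also expressed in cardiomyocytes, had 0.51 (SE 0.12), and Pdpn, podoplanin, -0.34 (SE 0.17).

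Some markers of neighbouring cell types differed where the endothelial genes did not pass the test. These lists were chosen with earlier results of these data known, so their counts are descriptions and no independent finding. Over all genes tested, edgeR called 0.899% lower and 0.463% higher, and DESeq2 called 5.46% of genes with an adjusted p. Of 8 mesenchyme genes 6 were called lower by edgeR, 7 by DESeq2 and 4 by limma-voom, and their summed level was 1448 and 1469 CPM in the libraries labelled mutant, against 2435 to 4217 CPM in the controls. Of 6 epicardial genes 1, Krt19, was called lower by edgeR and limma-voom and 4 by DESeq2, and 4 were lower at an unadjusted p under 0.05, with sums of 329 and 240 CPM in the libraries labelled mutant, against 342 to 465 CPM in the controls. None of 3 mural cell genes was called by edgeR, DESeq2 or limma-voom (1 lower at an unadjusted p under 0.05), with sums of 62.4 and 89.7 CPM in mutant replicates 1 and 2, against 52.7 to 89.1 CPM in the controls. Of 7 cardiomyocyte genes edgeR and limma-voom called 1 lower, Myl7, and DESeq2 called 2 lower (Myl2 and Myl7) and 2 higher (Myh7 and Tnnt2). At an unadjusted p under 0.05, 2 were lower and 2 higher, Myh7 at a log2 fold change of 0.57 (SE 0.14) and Tnnt2 at 0.40 (SE 0.10). The cardiomyocyte sums were 38305 and 41342 CPM in mutant replicates 1 and 2, against 35997 to 39536 CPM in the controls. No gene of these lists was at 0 in any library. The part of the other cell types in the endothelial values was not tested.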

How the data were processed

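Poly(A) RNA of 2 left ventricles labelled mutant and 5 control left ventricles was sequenced in single-end reads from a TruSeq RNA kit that does not mark strand, per the labels' protocols. The authors deposited unnormalized whole-number counts for each gene symbol. The submitters' processing notes name mm10 as the build, TopHat2 2.1.1 and featureCounts as tools, and also edgeR 3.16.5, limma 3.30.13 and R 3.3.2; which annotation was used, and how multiply matching reads were handled, is not stated there. The authors' deposited table lists log2 fold changes, p-values and false discovery rates, the last at most 0.05, for 668 genes. Its fold changes were taken as log2 because they lie near those fitted here, and all 668 had the same sign here.

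Counts were tested in R 4.3.3 with edgeR 4.0.16: filterByExpr (minimum count 10, minimum total 15), TMM factors of 0.988 to 1.009, glmQLFit with robust estimation, genotype as the only term. The SE is the log2 fold change divided by the square root of F. CPM use TMM-scaled totals, and log2 CPM a prior count of 2. The fit was tested on simulated data. Groups and replicates came from titles. Within a group, each pair of libraries gave a chi-square of 9.99 to 31.9 per degree of freedom over genes, so none was a duplicate. Members and lists were chosen with earlier results of these data known. Given in full were, in each role, the 4 members of lowest p and the 3 of highest mean CPM, and members with libraries on opposite sides of the controls; others were chosen after their values were seen. Alternatives were DESeq2 1.42.0, limma-voom from limma 3.58.1, other scalings and filters, no robust estimation, each library left out, Xist or haemoglobin as a covariate, and the replicate number as a block. Spans of 4 members (Eng, Plvap, Cd34 and Nos3) overlap another gene of the table, whose reads cannot be told apart without strand. Gene positions and promoter sequences are from RefSeq GRCm38.p6, which matched all 38 members by position and 18 by promoter; exon and transcript lengths are from GENCODE. Figures used Python 3.11.15 and matplotlib 3.10.9.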

Additional observations from a re-analysis of the deposited data

Results flagged for a closer look

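For 5 members 1 control stood apart from the 4 others by Dixon's test of its gap against the range, a rule that chance meets in about 1 in 20 groups. In 4 of them it was control replicate 5: Plvap at 101 CPM, against a next highest control of 59.2 CPM, Mmrn2 at 78.0 against 45.1 CPM, Nos3 at 90.7 against 61.2 CPM and Ece1 at 173 against 114 CPM. Control replicate 5 stood apart in this way, as the highest control, for 1.99% of all genes tested. Egfl7 was at 89.8 CPM in control replicate 1, against a next highest control of 78.4 CPM. Mutant replicate 2 was at 97.1 CPM for Plvap, 83.8 CPM for Mmrn2, 76.4 CPM for Nos3 and 200 CPM for Ece1.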

How the results depend on the processing

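The number of members called was 0 in the edgeR fit, 1 (Aplnr) by DESeq2 and 2 (Aplnr and Plvap) with the replicate block (adjusted p 2.4e-06 and 0.0361, edgeR quasi-likelihood). It was 0 to 1 with 1 library left out, the 1 being Aplnr without control replicate 3, and 0 in the other alternatives. Over the alternatives the adjusted p of Aplnr ran from 2.4e-06 to 0.586 and its log2 fold change from -1.28 to -0.85. Genes called in all numbered 200, and 786 by DESeq2, 114 by limma-voom, 811 with the replicate block, 60 with Xist and 303 with haemoglobin as a covariate, 52 without control replicate 5 and mutant replicate 2, and 12 to 275 with 1 library left out. Members at an unadjusted p under 0.05 numbered 3 (7.89%, against 11.3% of all genes) with Xist and 8 (21.1%, against 20.5%) with haemoglobin as a covariate. Egfl7 and Cldn5 left this set with Xist, at unadjusted p of 0.0662 and 0.0644 by the edgeR quasi-likelihood test. Members with libraries labelled mutant on opposite sides of the controls numbered 3 to 8 with 1 control left out, 8 without control replicate 5 (21.1%, against 6.89% of all genes). The replicate numbers do not pair the libraries by the labels: deviations correlated at 0.0775 for the replicates numbered 1 and 0.0117 for those numbered 2. Only these numbers hold both a mutant and a control library, so the genotype term of the block fit rests on arbitrary pairs. Its adjusted p for Aplnr and Plvap and its number of genes called are therefore no evidence of a change. With the block, 6 members turned sign: Emcn 0.05, Erg -0.01, Lmo2 0.01, Klf2 0.04, S1pr1 0.05 and Nos3 0.06. With haemoglobin, 7 did: Pecam1 0.00, Sox7 0.03, Klf2 0.08, Kdr 0.06, Flt1 0.01, S1pr1 0.02 and Nos3 0.07. With Xist, Erg was at -0.01 and Lmo2 at 0.08. Without control replicate 5 and mutant replicate 2, Emcn was at 0.02, Mmrn2 -0.06, Sox17 0.00, Sox18 0.29, Erg -0.06, Klf2 0.03, Plxnd1 -0.23 and Rasip1 0.06. Leaving out 1 library turned the sign of 25 members, with ranges of -0.22 to 0.15 for Pecam1, -0.44 to 0.28 for Cdh5, -0.00 to 0.37 for Eng, -0.10 to 0.03 for Emcn, -0.16 to 0.63 for Plvap, -1.07 to 0.20 for Vwf and -0.28 to 0.76 for Mmrn2. Ranges were -0.31 to 0.04 for Nfatc1, -0.27 to 0.20 for Sox7, -0.29 to 0.02 for Sox17, -0.34 to 0.26 for Sox18, -0.14 to 0.14 for Erg, -0.24 to 0.13 for Ets1, -0.56 to 0.22 for Tal1, -0.08 to 0.03 for Lmo2 and -0.10 to 0.12 for Klf2. They were -0.57 to 0.39 for Kdr, -0.53 to 0.30 for Flt1, -0.16 to 0.13 for S1pr1, -0.24 to 0.08 for Apln, -0.21 to 0.00 for Ramp2, -0.32 to 0.23 for Nos3, -0.16 to 0.78 for Ece1, -0.34 to 0.46 for Plxnd1 and -0.12 to 0.03 for Rasip1. In all, 25 members turned sign in some alternative and 13 in none, Aplnr, Icam2, Ecscr, Egfl7 and Cldn5 among the 13; the cause was not tested.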
